A study of Mus musculus with 9 samples.

Results

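The genes described here are the drug and anion transporters of the liver: the organic anion transporting polypeptides (Slco genes), the organic anion, cation and carnitine carriers (Slc22a), the proton-coupled extruders (Slc47a) and the ATP-driven pumps of the Abcb, Abcc and Abcg families. They were chosen by gene symbol alone, without Abcb11, Abcg1 and symbols ending in -ps, which gave 67 of the 55401 genes in the count table: 15 Slco, 26 Slc22a, 2 Slc47a, 9 Abcb, 10 Abcc and 5 Abcg genes. RNA was sequenced from the whole livers of female wild-type mice, with 3 livers in each of 3 groups. Hepatocellular carcinoma (HCC) was raised in mice 6 weeks of age by hydrodynamic tail-vein injection of sleeping beauty transposon plasmids for myristoylated AKT and Nras-v12, a procedure in which a rapid, large injection drives plasmids into hepatocytes. Untreated HCC received a blank adeno-associated virus of serotype 8 (AAV8) and miR-22-treated HCC received AAV8-miR-22, a vector that makes the microRNA from a CMV promoter alongside GFP. Both viruses were given 1 week after the oncogenes, and livers were taken 5 weeks after the oncogenes. Healthy livers came from mice with neither plasmids nor virus, and no collection day is given for them, so the transposon, the injection and AAV8 were shared by both HCC groups and absent from the healthy group. The descriptions name C57BL/6 in the strain field and FVB/N in the protocol, the study's methods name FVB/N, and the viral dose differs between the descriptions and the methods.

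Hepatocytes take drugs, bile acids, bilirubin conjugates and hormones from sinusoidal blood through Slco and Slc22a carriers in the basolateral membrane. Canalicular pumps of the Abcb, Abcc and Abcg families then move the products into bile, while other Abcc pumps return them to blood, a route known to be used more when bile flow fails. Many of these genes are known targets of the nuclear receptors CAR, PXR, FXR and PPARα or of NRF2, the antioxidant response factor.

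The total was 16664659 to 23908392 counts per liver, and transporter genes took 0.640 to 0.724% of all counts in the healthy group, 0.339 to 0.414% without miR-22 and 0.485 to 0.592% with it. Of the 67 genes, 45 had enough counts to be tested, among 15717 genes in all. Levels are given as CPM, counts scaled to library size with TMM normalization, always in the order of the replicate numbers. A gene was called at an edgeR adjusted p under 0.05 with a fold change over 1.5. The tissue label was checked against the hepatocyte markers Alb, Ttr, Apoa1 and Serpina1c, which summed to 110600 to 117200 CPM in the healthy group, 47280 to 58210 CPM in untreated HCC and 69680 to 83530 CPM with miR-22. None of the 4 was at 0 in any group.

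In untreated HCC, most of the tested Slco and Slc22a carriers were lower than in healthy livers. Among the pumps and extruders, Slc47a1, Abcc2, Abcc6, Abcg5 and Abcg8 were called lower, Abcc1, Abcc4, Abcc5 and Abcg2 were called higher, and Abcb4 and Abcc3 were not called. Of 45 transporters tested, 34 were called, against 40.8% of all genes tested. There were 24 that fell, against 18.1% of all genes, and 10 that rose, against 22.7% of all genes. When a library was left out, 23 to 26 fell and 8 or 9 rose. The median log2 fold change over the 45 was -0.79, beside 0.01 over all genes tested. With miR-22 treatment, 18 of 45 were called against untreated HCC, beside 13.8% of all genes. Of these, 17 rose, beside 8.32% of all genes, and 1 fell, beside 5.47%, a count that was 5 without treated replicate 4, 3 without untreated replicate 4 and 0 without untreated replicate 3, with a median log2 fold change of 0.37 over the 45 and 0.00 over all genes. A gene that passed the count filter through HCC alone had to differ, as with Slco1a6 and Abcc12, with fewer than 10 counts in every healthy liver, and Abcb1b, with 5, 8 and 16 counts, and 22 transporters were not tested. These medians and counts therefore describe the tested genes only. The untreated HCC livers entered both comparisons. In whole liver, fewer hepatocytes and less RNA per hepatocyte cannot be told apart, and the part of the hepatocyte marker levels above in these differences was not tested.

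**Figure D1:**
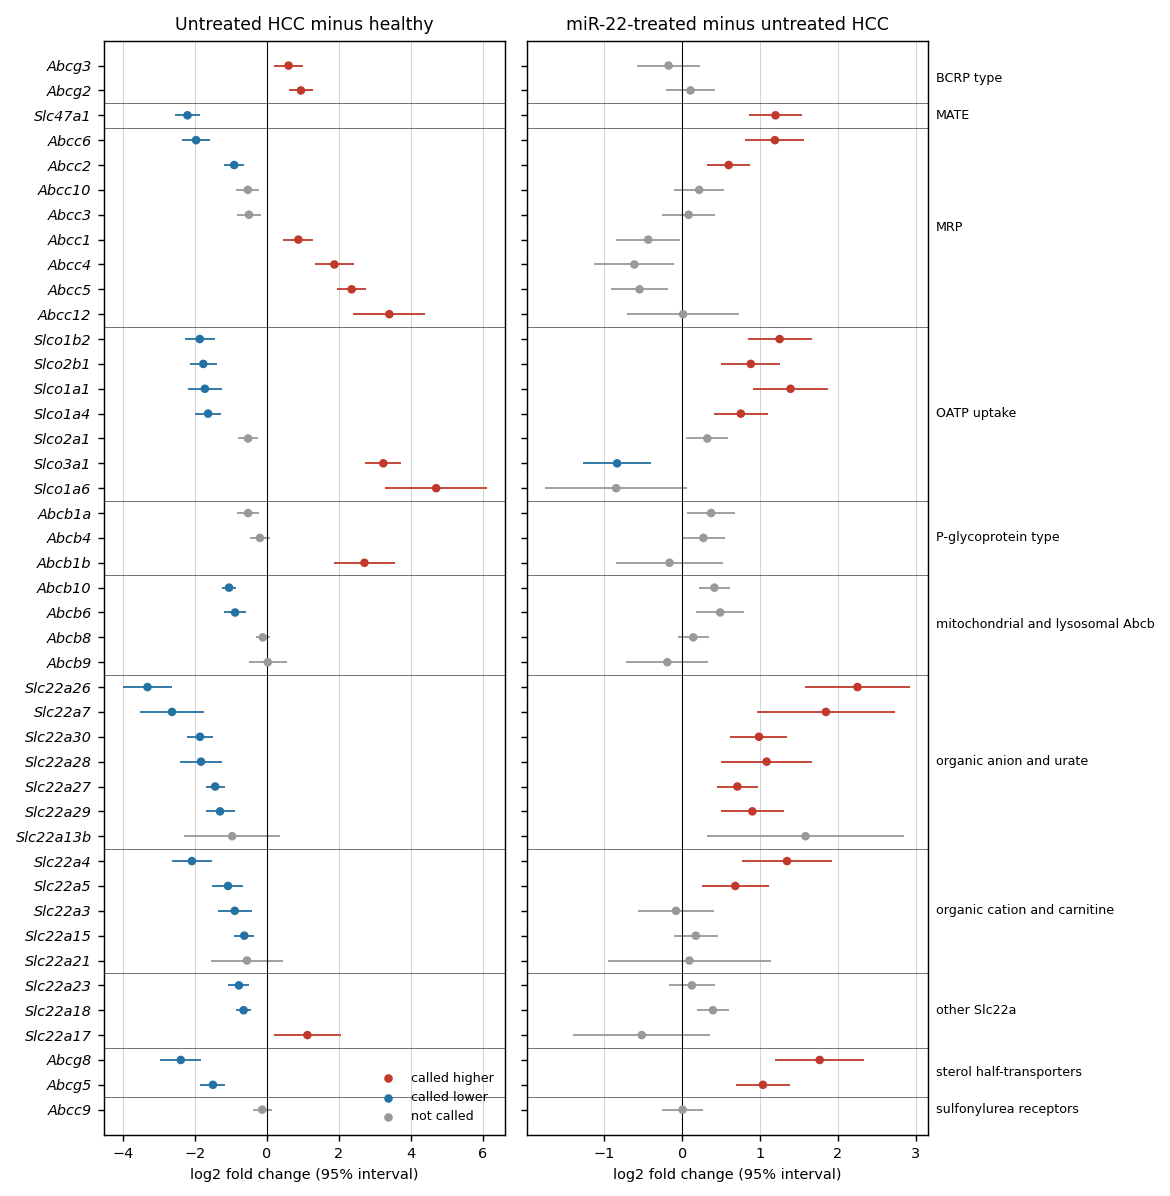
Log2 fold change with its 95% interval (x axis) for 43 of the 45 tested transporters (y axis, grouped by class), for untreated HCC minus healthy livers (left) and miR-22-treated minus untreated HCC (right), from a fit to 3 livers per group. Red marks called higher, blue called lower and gray not called: 23 of the genes shown lie to the left as called lower in HCC and 17 lie to the right as called higher with miR-22, with Slco3a1 the single gene called lower with miR-22.

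The organic anion transporting polypeptides of the hepatocyte surface fell in HCC and rose with miR-22, and Slco3a1 of the same family was higher in HCC. Slco1a6 was higher too, but it passed the count filter through the HCC livers alone and so had to be. Slco1b2, the mouse counterpart of the human statin and bilirubin carriers, measured 1667, 2196 and 2029 CPM in healthy livers, 547, 425 and 634 CPM in untreated HCC, and 1394, 1461 and 967 CPM in miR-22-treated HCC. The 3 groups did not overlap. Slco1b2 fell 3.67-fold in HCC (log2 fold change -1.88 ± 0.19 SE, edgeR adjusted p = 4.19e-06) and rose 2.38-fold with miR-22 (1.25 ± 0.19, edgeR adjusted p = 0.000885). Slco1a1, a carrier of bile acids and steroid sulfates, measured 1033, 1215 and 1156 CPM in healthy livers, 347, 241 and 437 CPM in untreated HCC, and 962, 1082 and 643 CPM with miR-22. Its highest treated liver lay inside the healthy range, while untreated HCC stood apart from both. Slco1a1 fell 3.32-fold in HCC (-1.73 ± 0.22, edgeR adjusted p = 2.61e-05) and rose 2.62-fold with miR-22 (1.39 ± 0.22, edgeR adjusted p = 0.00107).

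Slco1a4, which also carries digoxin-like compounds, measured 232, 295 and 252 CPM in healthy livers, 87.9, 66.5 and 94.8 CPM in untreated HCC, and 148, 162 and 111 CPM with miR-22. Slco2b1, a carrier of sulfated steroids, averaged 210.2 ± 12.8 CPM (SD, n = 3) in healthy livers and measured 64.1, 47.0 and 72.8 CPM, then 137, 116 and 86.0 CPM in the HCC groups. Neither gene had overlapping groups. Slco1a4 fell 3.12-fold in HCC (edgeR adjusted p = 3.3e-06) and rose 1.69-fold with miR-22 (edgeR adjusted p = 0.00566). Slco2b1 fell 3.43-fold (edgeR adjusted p = 3.24e-06) and rose 1.84-fold (edgeR adjusted p = 0.00364). The prostaglandin transporter Slco2a1, at 90.3 to 107 CPM in the healthy group, 57.9 to 76.8 CPM in untreated HCC and 75.0 to 98.0 CPM with miR-22, passed the test in HCC but not the fold (log2 fold change -0.53 ± 0.12, edgeR adjusted p = 0.0029). Its change exceeded the fold without healthy replicate 3 (-0.60) or without untreated replicate 4 (-0.63). With miR-22 its log2 fold change was 0.32 ± 0.12 (edgeR adjusted p = 0.0796), and it was not called.

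Slco3a1, a widely expressed carrier of prostaglandins and thyroxine, measured 5.09, 4.54 and 5.22 CPM in healthy livers, 46.1, 58.4 and 35.6 CPM in untreated HCC, and 25.6, 18.8 and 33.8 CPM with miR-22. The treated livers lay between the other groups, without overlap. Slco3a1 rose 9.41-fold in HCC (3.23 ± 0.23, edgeR adjusted p = 2.49e-07) and was the single transporter called lower with miR-22 in the fit to all 9 livers, by 1.78-fold (-0.83 ± 0.20, edgeR adjusted p = 0.0103). Without untreated replicate 3 that fall was no longer called (log2 fold change -0.64, edgeR adjusted p = 0.0552). Slco1a6, a paralog known from kidney, had 1 count in each healthy liver, 44, 36 and 41 counts in untreated HCC, and 10, 9 and 35 counts with miR-22. The ratio of its summed counts, scaled for library size, was 28.6 for untreated HCC over healthy livers (exact 95% interval 9.56 to 141, counting error only), and 16.6 for treated HCC over healthy livers (5.39 to 83.0). With miR-22 its difference from untreated HCC was not called (log2 fold change -0.85 ± 0.42, edgeR adjusted p = 0.167), although it was without treated replicate 4 (-1.58, edgeR adjusted p = 0.0165). Slco1a6 shared 5.68% of its 31-base stretches with another member, most with Slco1a5, so the counting could have split few of its reads.

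**Figure D2:**
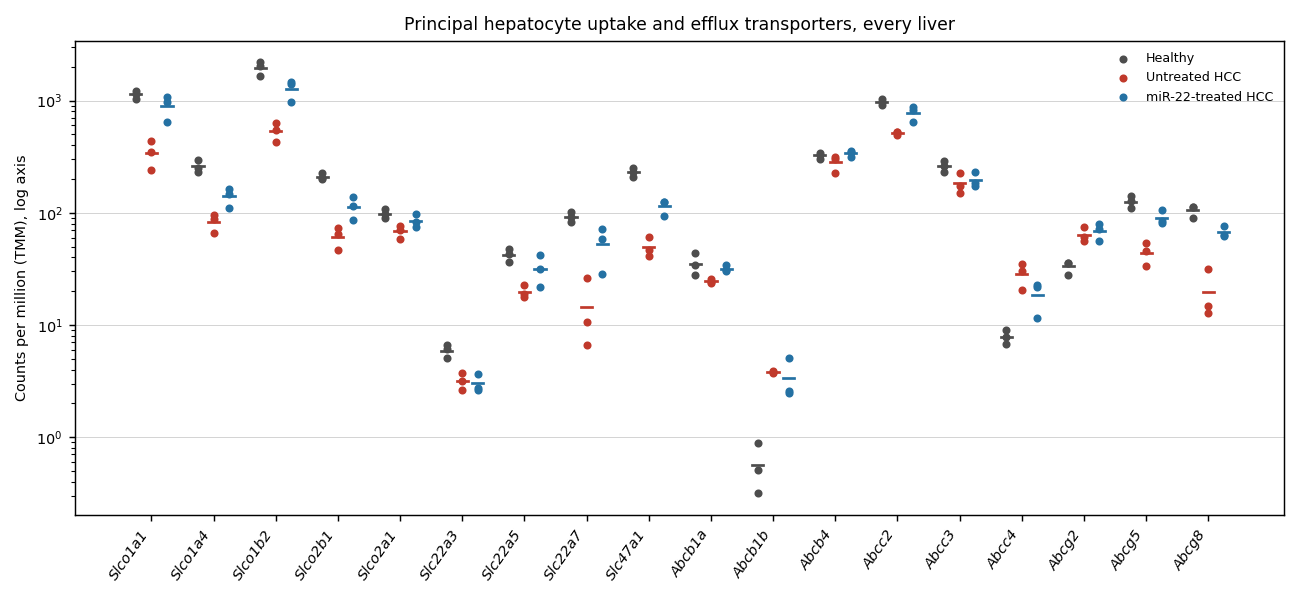
CPM after TMM normalization (y axis, log scale) of 18 principal uptake and efflux transporters (x axis) in every liver: points are livers, horizontal bars are the means of 3 livers, dark gray is healthy, red untreated HCC and blue miR-22-treated HCC. Slco1b2 lies at 1667 to 2196 CPM in healthy livers and 425 to 634 CPM in untreated HCC, and Abcc4, Abcb1b and Abcg2 are the genes whose healthy livers lie below both HCC groups.

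The organic anion carriers of the Slc22a family held the 2 largest falls among the 45 transporters tested. All 7 tested genes of this class had a negative log2 fold change in HCC, 6 of them called, and 6 of 7 were called higher with miR-22, beside 18.1% of all genes called lower in HCC and 8.32% called higher with miR-22. Slc22a26, from a rodent cluster of organic anion carriers, measured 294, 308 and 265 CPM in healthy livers, 15.7, 29.2 and 40.9 CPM in untreated HCC, and 192, 129 and 89.1 CPM with miR-22. The 3 groups were apart, and the treated livers spanned the wide gap between the others. Slc22a26 fell 10.1-fold in HCC (-3.33 ± 0.32, edgeR adjusted p = 2.5e-06) and rose 4.76-fold with miR-22 (2.25 ± 0.31, edgeR adjusted p = 0.000534). Slc22a7, which encodes OAT2, a carrier of cyclic GMP and other organic anions, measured 92.1, 82.5 and 101 CPM in healthy livers, 6.61, 10.7 and 26.1 CPM in untreated HCC, and 59.0, 71.1 and 28.2 CPM with miR-22. The highest untreated liver (26.1 CPM) and the lowest treated liver (28.2 CPM), both replicate 4, were nearly level. Slc22a7 fell 6.27-fold in HCC (-2.65 ± 0.41, edgeR adjusted p = 0.00014) and rose 3.59-fold with miR-22 (1.84 ± 0.41, edgeR adjusted p = 0.00682). Without untreated replicate 4 the log2 fold changes of Slc22a7 were -3.40 (edgeR adjusted p = 6.29e-06) and 2.60 (edgeR adjusted p = 0.000316).

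Slc22a27, Slc22a28, Slc22a29 and Slc22a30 lie beside Slc22a26 on chromosome 19. Slc22a30 was the most abundant of them per length of transcript, with 312, 360 and 365 CPM in healthy livers, 89.2, 78.4 and 116 CPM in untreated HCC, and 223, 194 and 144 CPM with miR-22. It fell 3.65-fold in HCC (edgeR adjusted p = 1.76e-06) and rose 1.98-fold with miR-22 (edgeR adjusted p = 0.00164). The other 3 fell 2.48-fold to 3.58-fold and rose 1.63-fold to 2.12-fold: Slc22a27 by 2.73-fold and 1.63-fold, Slc22a28 by 3.58-fold and 2.12-fold, and Slc22a29 by 2.48-fold and 1.87-fold. These paralogs are uncertain as single genes, since 31.5% of the 31-base stretches of Slc22a27, 33.6% of Slc22a28, 40.2% of Slc22a29 and 38.8% of Slc22a30 recur in another member, whereas the figure for Slc22a26 is 0.667%. Slc22a13b, the remaining tested gene of the class, stayed under 0.83 CPM in every liver, was called in no comparison and shared 53.6% of its 31-base stretches with another member.

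Organic cation and carnitine carriers were lower in HCC in 5 of the 6 tested genes, and 2 of the 6 were called higher with miR-22, beside the same 18.1% and 8.32% of all genes. Slc22a4, or OCTN1, an ergothioneine carrier, measured 4.84, 6.49 and 4.78 CPM, then 1.08, 1.52 and 1.16 CPM, then 4.00, 2.62 and 2.95 CPM in the order healthy, untreated and treated. It fell 4.27-fold (edgeR adjusted p = 2.05e-05) and rose 2.54-fold (edgeR adjusted p = 0.00359), with no overlap between groups.

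Slc22a5, or OCTN2, the plasma membrane carnitine carrier, measured 47.7, 43.2 and 36.1 CPM in healthy livers, 18.7, 17.9 and 22.9 CPM in untreated HCC, and 21.7, 31.6 and 42.1 CPM with miR-22. Its lowest treated liver lay inside the untreated range. It fell 2.13-fold in HCC (edgeR adjusted p = 0.000457) and rose 1.60-fold with miR-22 (0.68 ± 0.20, edgeR adjusted p = 0.0259), a call that was lost without untreated replicate 2, untreated replicate 3, treated replicate 3 or treated replicate 4 (log2 fold changes of 0.64, 0.61, 0.69 and 0.42, edgeR adjusted p = 0.0672 to 0.104). Of its 31-base stretches 17.1% recur in another member, and 24.1% of those of Slc22a21. Slc22a3, or OCT3, an amine carrier, measured 6.10, 5.04 and 6.59 CPM in healthy livers, 3.19, 3.72 and 2.62 CPM in untreated HCC, and 2.63, 3.64 and 2.76 CPM with miR-22. Both HCC groups shared a range below the healthy livers. Slc22a3 fell 1.87-fold in HCC (edgeR adjusted p = 0.00344), and its log2 fold change with miR-22 was -0.08 with a 95% interval of -0.57 to 0.41. Slc22a15 fell 1.55-fold in HCC (-0.64 ± 0.13, edgeR adjusted p = 0.00113), under the fold without healthy replicate 3 (-0.58) or untreated replicate 4 (-0.57), and Slc22a21 was called in no comparison.

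Slc47a1, which encodes MATE1, the proton-coupled extruder that passes organic cations into bile, measured 211, 251 and 232 CPM in healthy livers, 47.0, 40.8 and 61.3 CPM in untreated HCC, and 125, 124 and 93.0 CPM with miR-22. The groups were far apart and the treated livers intermediate. Slc47a1 fell 4.65-fold in HCC (-2.22 ± 0.16, edgeR adjusted p = 2.47e-07) and rose 2.29-fold with miR-22 (1.20 ± 0.15, edgeR adjusted p = 0.000398).

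Among the multidrug resistance-associated proteins (Abcc1 to Abcc6, Abcc10 and Abcc12), canalicular Abcc2 and hepatocyte Abcc6 fell in HCC while Abcc1, Abcc4, Abcc5 and Abcc12 rose. Abcc2, or MRP2, the canalicular pump for bilirubin glucuronides and glutathione conjugates, measured 909, 1035 and 970 CPM in healthy livers, 530, 490.0 and 524 CPM in untreated HCC, and 822, 873 and 641 CPM with miR-22. The 3 groups did not overlap. Abcc2 fell 1.89-fold in HCC (-0.92 ± 0.13, edgeR adjusted p = 5.65e-05) and rose 1.51-fold with miR-22 (0.60 ± 0.13, edgeR adjusted p = 0.00569). That rise was at the edge of the fold, and it stayed under it without untreated replicate 3 (0.56), treated replicate 2 (0.55) or treated replicate 3 (0.51). Abcc6, whose loss underlies pseudoxanthoma elasticum, measured 358, 347 and 317 CPM in healthy livers, 70.4, 72.3 and 116 CPM in untreated HCC, and 216, 206 and 170 CPM with miR-22. It fell 3.94-fold (-1.98 ± 0.18, edgeR adjusted p = 1.45e-06) and rose 2.28-fold (1.19 ± 0.17, edgeR adjusted p = 0.000766).

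Abcc4, or MRP4, a basolateral pump for cyclic nucleotides and bile acid conjugates, measured 7.73, 8.95 and 6.76 CPM in healthy livers, 30.5, 34.7 and 20.7 CPM in untreated HCC, and 21.6, 11.5 and 22.7 CPM with miR-22. The HCC groups overlapped, and both lay above the healthy livers. Abcc4 rose 3.67-fold in HCC (1.87 ± 0.25, edgeR adjusted p = 4.16e-05), and its log2 fold change with miR-22 was -0.61 ± 0.24 (edgeR adjusted p = 0.0789), called lower without untreated replicate 4 (-0.80, edgeR adjusted p = 0.0252) or treated replicate 4 (-0.78, edgeR adjusted p = 0.0412). Abcc5, or MRP5, a pump for nucleotide analogs, measured 12.8, 10.8 and 13.5 CPM in healthy livers, 61.7, 69.8 and 58.3 CPM in untreated HCC, and 37.4, 34.2 and 58.0 CPM with miR-22. Treated replicate 4 nearly touched the lowest untreated liver. Abcc5 rose 5.11-fold in HCC (2.35 ± 0.18, edgeR adjusted p = 4.57e-07) and passed the test but not the fold with miR-22 (-0.55 ± 0.17, edgeR adjusted p = 0.0325), past the fold without untreated replicate 4 (-0.60, edgeR adjusted p = 0.0387) or treated replicate 4 (-0.82, edgeR adjusted p = 0.000442).

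Abcc12, or MRP9, had 5, 4 and 2 counts in healthy livers, 50 to 59 counts in untreated HCC and 27 to 73 counts with miR-22, and its fitted level was 10.6-fold higher in HCC (3.40 ± 0.46, edgeR adjusted p = 4.23e-05) with a log2 fold change of 0.01 with miR-22 (95% interval -0.71 to 0.74). It too passed the filter through the HCC livers alone. Abcc1, or MRP1, a glutathione conjugate pump of most tissues other than healthy hepatocytes, rose 1.83-fold in HCC (edgeR adjusted p = 0.002), from 3.27 to 4.22 CPM up to 5.98 to 7.66 CPM. Abcc3, or MRP3, which returns glucuronides to blood, measured 288, 264 and 232 CPM in healthy livers, 173, 151 and 228 CPM in untreated HCC, and 172, 183 and 230 CPM with miR-22. Unlike those of Abcc4 and Abcc5, its log2 fold change in HCC was negative (-0.51 ± 0.16, edgeR adjusted p = 0.0146), short of the fold, which it reached without healthy replicate 3 (-0.59) or untreated replicate 4 (-0.69). Abcc10 behaved likewise in this fit (-0.54 ± 0.15, edgeR adjusted p = 0.00729), reaching the fold without healthy replicate 3 (-0.61) or untreated replicate 4 (-0.70), and neither Abcc3 nor Abcc10 was called with miR-22.

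Promoter windows, 250 bases before to 50 bases after each RefSeq start (GRCm38.p6), were available for 53 transporters, with 63 promoters, and were set beside all 32851 promoters. The antioxidant response element core TGACNNNGC, searched on both strands, stood in 12.4% of all promoters and in 11 of the 63 transporter promoters (17.5%). Those belonged to 9 genes: Abcb1a, Abcc10, Abcc2, Abcc4, Slc22a20, Slc22a27, Slco4c1, Slco6b1 and Slco6d1. Of these genes Abcc4 alone was called higher in HCC, Abcc2 and Slc22a27 were called lower, and the others were not called or not tested. Windows are printed for Abcc2 and Abcc4, textbook targets of NRF2 that moved in opposite directions in HCC, with the match in capitals. It starts 98 bases before the start of Abcc2, and 25 and 23 bases before the upstream and downstream starts of Abcc4, and it reads on the opposite strand in the first Abcc4 promoter.
Abcc2, chr19:43782200-43782228, plus strand: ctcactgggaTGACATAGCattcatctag
Abcc4 upstream start, chr14:118706226-118706254, minus strand: gccccgagagGCGGGGTCAgggcgggccg
Abcc4 downstream start, chr14:118676936-118676964, minus strand: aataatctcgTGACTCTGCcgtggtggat
The E-box CACGTG, which reads alike on both strands, stood in 7.15% of all promoters and in 4 of the 63 (6.35%), those of Abcc4, Slc22a4, Slc22a16 and Slco1c1. No match overlapped another. Nfe2l2, which encodes NRF2, rose in HCC (log2 fold change 1.18, edgeR adjusted p = 6.26e-06) and passed the test but not the fold with miR-22 (-0.58, edgeR adjusted p = 0.00568).

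The P-glycoprotein genes Abcb1a, Abcb1b and Abcb4 lie next to each other on chromosome 5. Abcb1b, an inducible P-glycoprotein of liver, measured 0.314, 0.504 and 0.879 CPM in healthy livers, 3.75, 3.85 and 3.81 CPM in untreated HCC, and 2.57, 2.49 and 5.04 CPM with miR-22. The untreated livers were close together and lay within the treated range. Abcb1b passed the count filter through the HCC livers alone, so its test is no independent evidence of a difference. The fitted level was 6.55-fold higher in HCC (2.71 ± 0.39, edgeR adjusted p = 6.87e-05), and its log2 fold change with miR-22 was -0.16 with a 95% interval of -0.84 to 0.52. Abcb1a, its paralog, measured 27.6, 44.0 and 34.1 CPM in healthy livers, 25.8, 24.0 and 23.4 CPM in untreated HCC, and 30.1, 34.1 and 30.6 CPM with miR-22. It passed the test but not the fold in HCC (-0.53 ± 0.14, edgeR adjusted p = 0.00659), with -0.69 without healthy replicate 1, and was not called with miR-22 (0.37 ± 0.14, edgeR adjusted p = 0.0774). Reads of this pair can be confused, since 21.4% of the 31-base stretches of Abcb1a recur in another member. Abcb4, the canalicular flippase for phosphatidylcholine, measured 342, 330.2 and 301 CPM in healthy livers, 302, 228 and 316 CPM in untreated HCC, and 313, 352 and 358 CPM with miR-22. The 3 groups overlapped, and the log2 fold change in HCC was -0.20 with a 95% interval of -0.48 to 0.08.

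Of the sterol and breast cancer resistance protein types, the sterol pumps fell and Abcg2 rose in HCC. Abcg5 and Abcg8 encode the subunits of the canalicular cholesterol pump and are read from opposite strands of one region of chromosome 17. Abcg8 measured 113, 112 and 89.9 CPM in healthy livers, 14.6, 12.8 and 31.6 CPM in untreated HCC, and 63.7, 76.0 and 62.3 CPM with miR-22. Abcg5 measured 126, 140.3 and 111 CPM, then 45.2, 33.8 and 53.3 CPM, then 84.1, 107 and 80.8 CPM. In both, the treated livers lay between the other groups without overlap. Abcg8 fell 5.30-fold (-2.40 ± 0.26, edgeR adjusted p = 7.63e-06) and rose 3.40-fold with miR-22 (1.76 ± 0.26, edgeR adjusted p = 0.000803), and Abcg5 fell 2.85-fold (edgeR adjusted p = 5.92e-06) and rose 2.05-fold (edgeR adjusted p = 0.000963). Abcg2, or BCRP, a canalicular pump for urate, sulfates and many drugs, measured 28.2, 35.7 and 35.8 CPM in healthy livers, 75.3, 56.0 and 60.3 CPM in untreated HCC, and 55.6, 79.5 and 71.4 CPM with miR-22. Both HCC groups shared a range above the healthy livers. Abcg2 rose 1.92-fold in HCC (0.94 ± 0.15, edgeR adjusted p = 0.000162), and with miR-22 its log2 fold change was 0.11 with a 95% interval of -0.21 to 0.43. Abcg3, a rodent relative of Abcg2, rose 1.51-fold in HCC (edgeR adjusted p = 0.0168), at the edge of the fold, and was not called with miR-22.

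The remaining tested transporters were the mitochondrial and lysosomal Abcb genes, 3 other Slc22a genes and Abcc9. Of the 5 mitochondrial and lysosomal Abcb genes, 2 fell in HCC, beside 18.1% of all genes, and none was called with miR-22, beside 13.8%, where edgeR gave 2 of them an adjusted p under 0.05 without the fold. Abcb10, a mitochondrial inner membrane protein needed for heme synthesis, fell 2.09-fold in HCC (-1.06 ± 0.09, edgeR adjusted p = 1.19e-06), from 47.7 to 55.6 CPM down to 23.6 to 24.7 CPM, with a log2 fold change of 0.41 ± 0.09 with miR-22 (edgeR adjusted p = 0.00725). Abcb6 fell 1.85-fold (edgeR adjusted p = 0.000142) and changed by 0.49 with miR-22 (edgeR adjusted p = 0.0245), past the fold without untreated replicate 2 (0.59), but 91.8% of its main transcript lies under other annotated genes, so its count is uncertain in libraries without strand. Abcb8, Abcb9 and Abcc9, the last a subunit of potassium channels, were not called in HCC or with miR-22. Slc22a18, from an imprinted region, fell 1.57-fold in HCC (-0.65 ± 0.10, edgeR adjusted p = 8.44e-05), short of the fold without untreated replicate 3 (-0.57), and the orphan carrier Slc22a23 fell 1.72-fold (edgeR adjusted p = 0.000293). With miR-22, Slc22a18 passed the test without the fold (0.40 ± 0.10, edgeR adjusted p = 0.011) and Slc22a23 did not pass it. Slc22a17, the receptor for lipocalin 2, rose 2.18-fold in HCC (1.12 ± 0.43, edgeR adjusted p = 0.0392), from 1.26 to 1.95 CPM up to 3.05 to 3.81 CPM.

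Most of the 22 transporters below the count filter are known chiefly from kidney, brain or testis, and 6 of them (Slco6b1, Slco6c1, Slco6d1, Abcb5, Slc22a16 and Slc22a22) had 0 counts in all 9 livers, which allows up to 3 counts in each. Slco6b1 is annotated as a transcribed pseudogene. A few had counts in HCC and hardly any in healthy livers. Slc22a2, or OCT2, the renal organic cation carrier beside Slc22a3 on chromosome 17, had 0 counts in each healthy liver, 8, 23 and 8 counts in untreated HCC, and 3, 2 and 6 counts with miR-22. Taking 3 counts over the group as the floor, it was at least 9.22-fold higher in untreated HCC and at least 3.38-fold higher in treated HCC than in healthy livers. Slc22a12, the urate exchanger URAT1, had 0 counts in healthy livers, 9, 5 and 4 counts in untreated HCC and 1, 4 and 1 counts with miR-22, at least 4.26-fold and 1.84-fold higher, though 30.6% of its main transcript lies under Nrxn2. Slco4c1, a renal digoxin carrier, summed to 1 count in healthy livers and 19 in untreated HCC, a ratio of 13.5 (exact 95% interval 2.14 to 560.1), and Slco1c1, a thyroxine carrier of brain, to 1 and 11, a ratio of 7.80 (1.13 to 336). The other 12 had at most 8 counts in any liver. These are values of a few reads with no test, and intervals and floors cover counting error only.

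**Figure D3:**
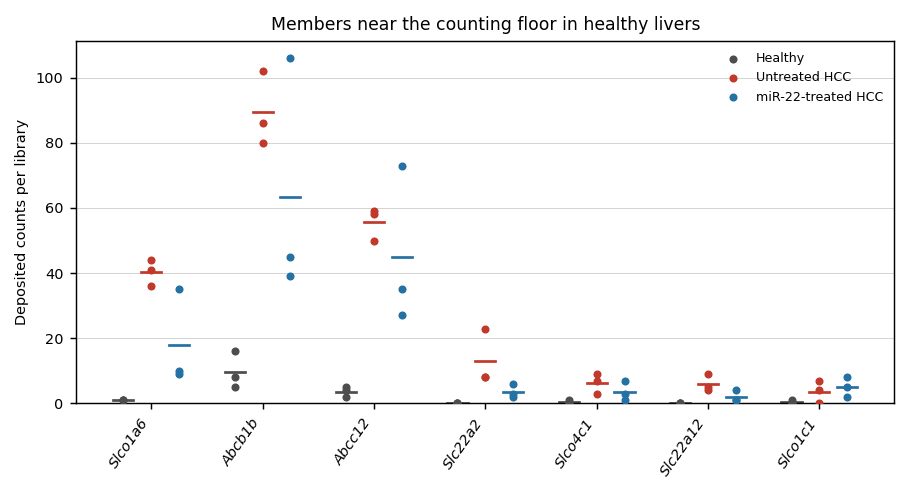
Deposited counts per liver (y axis) of 7 transporters that were close to 0 counts in healthy livers (x axis), with points for livers and bars for the means of 3 livers. Slco1a6 rises from 1 count in each healthy liver to 36 to 44 in untreated HCC, and Slc22a2 from 0 to 8, 23 and 8.

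Treated livers were next set against healthy livers, which shows where the transporters stood after treatment. Of the 45, 20 were called, beside 24.0% of all genes tested: 13 lower, beside 7.05%, and 7 higher, beside 16.9%, with a median log2 fold change of -0.40 over the 45 and 0.02 over all genes tested. The uptake carriers Slc22a26 (2.12-fold lower, edgeR adjusted p = 0.0122), Slco2b1 (1.86-fold, edgeR adjusted p = 0.00154), Slco1a4 (1.85-fold, edgeR adjusted p = 0.00101) and Slc22a30 (1.84-fold, edgeR adjusted p = 0.00142), the extruder Slc47a1 (2.03-fold, edgeR adjusted p = 0.000276) and Slc22a3 (1.97-fold, edgeR adjusted p = 0.00439) were lower. Slco1b2 was 1.54-fold lower (-0.62 ± 0.19, edgeR adjusted p = 0.02), a call lost without healthy replicate 2, healthy replicate 3 or treated replicate 4 (-0.55, -0.62 and -0.46), and Slc22a4 was 1.68-fold lower (edgeR adjusted p = 0.0297), lost without healthy replicate 2, treated replicate 3 or treated replicate 4 (-0.60, -0.63 and -0.69). Abcc6, Abcb10, Slc22a23, Slc22a27 and Slc22a28 were lower as well. Slco1a1 was not called (log2 fold change -0.34, 95% interval -0.81 to 0.13), nor was Abcc2 (-0.32, -0.60 to -0.04), Slc22a7 (-0.80, -1.64 to 0.04) or Abcg8 (-0.64, -1.18 to -0.10), and each of these intervals reaches a fall past the fold. Abcg8 was called lower with DESeq2 size factors (-0.67, edgeR adjusted p = 0.0493), and both Abcg8 and Slc22a7 were called lower in a fit to the groups compared (-0.65, edgeR adjusted p = 0.00175, and -0.81, edgeR adjusted p = 0.0325) and without the filter (edgeR adjusted p = 3.04e-07 and 4.87e-11). Abcg5 passed the test without the fold (-0.47 ± 0.16, edgeR adjusted p = 0.0332) and was called lower without treated replicate 3 (-0.61), and Slc22a5, at -0.41, was called lower without treated replicate 4 (-0.67).

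The 7 that were higher in treated than in healthy livers were Abcc12 (10.7-fold, edgeR adjusted p = 0.000128), Abcb1b (5.86-fold, edgeR adjusted p = 0.000346), Slco3a1 (5.28-fold, edgeR adjusted p = 8.47e-06), Abcc5 (3.50-fold, edgeR adjusted p = 1.16e-05), Abcc4 (2.40-fold, edgeR adjusted p = 0.00212), Abcg2 (2.07-fold, edgeR adjusted p = 0.000197) and Slco1a6, whose ratio is given above and whose fitted log2 fold change of 3.86 was 3.12 without treated replicate 4, and of these Abcc12, Abcb1b and Slco1a6 passed the filter through the HCC livers alone. Slc22a15 and Abcb6 passed the test without the fold, at log2 fold changes of -0.46 and -0.40.

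Levels can be set side by side between genes only per length of transcript. Summed over all transporters, the level was 1820, 2070 and 1940 CPM per kilobase in healthy livers, 752, 641 and 886 in untreated HCC, and 1450, 1490 and 1140 in miR-22-treated HCC, without overlap between groups. Slco carriers took 40.7 to 44.6% of this pool in the healthy group, 31.2 to 34.8% without miR-22 and 38.3 to 45.2% with it, and the organic anion carriers of the Slc22a family took 16.5 to 17.3%, 7.99 to 10.4% and 11.4 to 14.8%. The P-glycoprotein type, most of it Abcb4, took 3.73 to 4.41% in the healthy group, 8.40 to 9.56% without miR-22 and 5.17 to 7.48% with it, and the multidrug resistance-associated proteins took 11.1 to 12.4%, 16.0 to 18.9% and 12.3 to 14.4%. The summed levels of these 2 classes did not follow their shares: the P-glycoprotein type stood at 72.5 to 80.8 CPM per kilobase in the healthy group, 55.3 to 74.4 without miR-22 and 74.7 to 85.2 with it, and the multidrug resistance-associated proteins at 215 to 234, 121 to 142 and 165 to 183. In healthy livers the level per kilobase was 432 ± 59.5 CPM (SD, n = 3) for Slco1b2, 286 ± 23.4 for Slco1a1, 153 ± 13.04 for Slc22a30 and 121 ± 7.85 for Abcc2, and Slco1b2 was highest of all. In untreated HCC it was 118 ± 23.1 for Slco1b2, 86.0 ± 24.8 for Slco1a1, 64.1 ± 2.66 for Abcc2 and 61.5 ± 10.4 for Abcb4, where Abcc2 and Abcb4 differed by less than their spread. In treated HCC it was 280.2 ± 59.0 for Slco1b2, 226 ± 57.2 for Slco1a1, 97.0 ± 15.2 for Abcc2, 82.9 ± 17.7 for Slc22a30 and 74.3 ± 5.34 for Abcb4, and Slco1b2 and Slco1a1 lay within their spread, as did Abcc2 and Slc22a30.

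**Figure D4:**
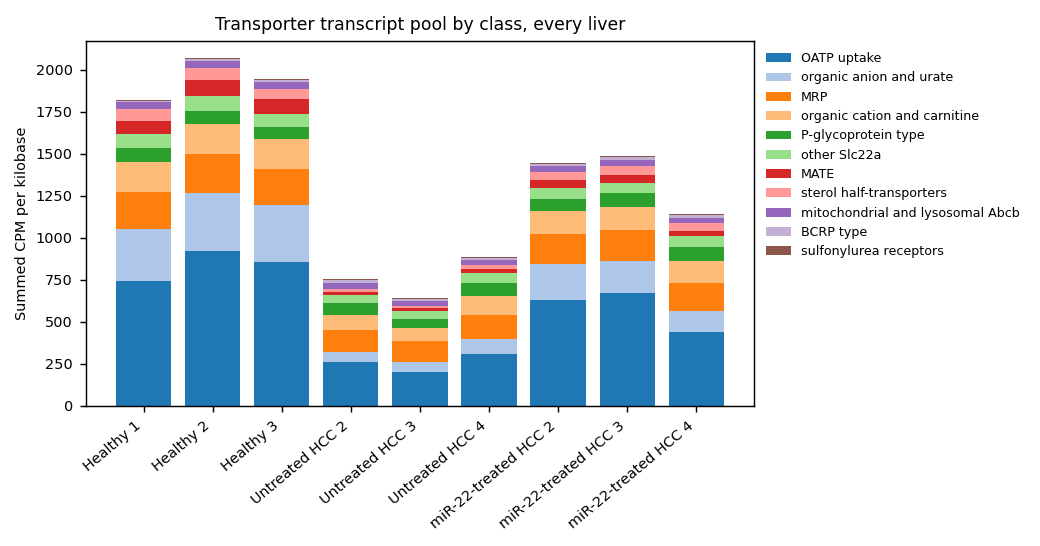
Summed CPM per kilobase of transcript (y axis) of all 67 transporters in each liver (x axis), stacked by class. The bars reach 1820 to 2070 in the healthy group, 641 to 886 without miR-22 and 1140 to 1490 with it, and the Slco segment is the largest in every liver.

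Of the 67 transporters, 37 lie in 11 runs of neighbours less than 200 kb apart (GRCm39, GENCODE M39). Slco1a6 and Abcb1b passed the filter through the HCC livers alone and Slc22a2 was not tested, so nothing is read from how they differ from their neighbours. The run chr6:141469705-142268788 holds Slco1c1, Slco1b2, Slco1a4, Slco1a1, Slco1a6 and Slco1a5 in that order, and Slco1b2, Slco1a4 and Slco1a1 fell in HCC. On chromosome 17, Slc22a3 fell in HCC, and Slc22a2 lies beside it on the other strand. In the run chr5:8710022-9011999 the P-glycoprotein genes Abcb1a and Abcb4 gave log2 fold changes of -0.53 and -0.20 in HCC, and Abcb1b lies between them. In the run chr19:7650426-8605663, the 5 tested genes Slc22a26 to Slc22a30 all fell, and Slc22a19, Slc22a8 and Slc22a6, known from kidney, had at most 3 counts in any liver. Slc22a7 and Abcc10, Abcg5 and Abcg8, and Slc22a5, Slc22a21 and Slc22a4 were further runs, none of which held a gene called higher in HCC.

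**Figure D5:**
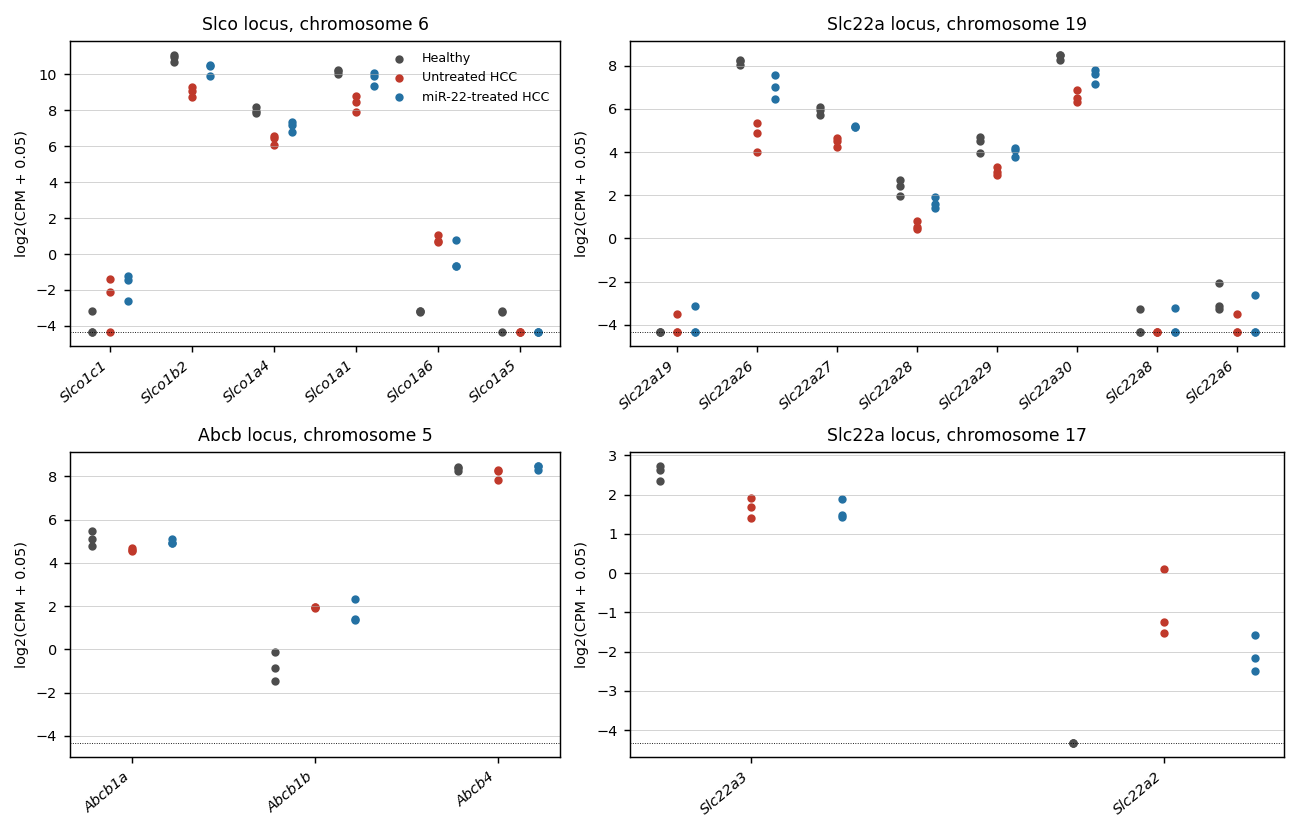
Log2 of CPM plus 0.05 (y axis) in every liver for 4 runs of neighbouring transporters in their order along the chromosome (x axis), with dark gray for healthy, red for untreated HCC and blue for miR-22-treated HCC; the dotted line is 0 counts. Slco1a6, Abcb1b and Slc22a2 lie higher in both HCC groups than in healthy livers and Slco1a1 and Slc22a3, neighbours of Slco1a6 and Slc22a2, lie lower in untreated HCC, while the abundant genes of the chromosome 19 run all lie lower in untreated HCC.

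Genes that regulate, anchor or work beside these transporters were counted from lists. Of 23 nuclear receptors and factors, 9 fell and 3 rose in HCC, and 4 rose and 1 fell with miR-22. The shares over all genes, for this list and the next 2, were 18.1% lower and 22.7% higher in HCC and 8.32% higher and 5.47% lower with miR-22, and the 3 that rose and the 1 that fell lie below them. Ppara (log2 fold change -1.92 in HCC, edgeR adjusted p = 8.29e-07, and 1.44 with miR-22, edgeR adjusted p = 0.000164), the CAR gene Nr1i3 (-2.91, edgeR adjusted p = 9.05e-07, and 1.59, edgeR adjusted p = 0.000871) and the FXR gene Nr1h4 (-0.91, edgeR adjusted p = 5.69e-06, and 0.60, edgeR adjusted p = 0.00114) were among them. Of 9 tested partners in bile acid and lipid transport, 5 fell and 2 rose in HCC and 3 rose with miR-22, led by Slc10a1, the sodium-dependent bile acid carrier (-3.00, edgeR adjusted p = 1.39e-06, and 1.80, edgeR adjusted p = 0.000672). Of 10 scaffold and anchor genes, 4 fell and 4 rose in HCC and 1 fell with miR-22: the canalicular anchor radixin (Rdx) fell in HCC (-0.67, edgeR adjusted p = 0.000145), while ezrin (Ezr), the anchor of bile duct cells, rose in HCC (2.07, edgeR adjusted p = 1.22e-06) and fell with miR-22 (-0.82, edgeR adjusted p = 0.00486). Vdr among the receptors, Vil1 among the scaffolds and the markers Krt7, Ccnb1, Cdk1, S100a8, S100a9 and Cxcr2 below did not reach the count filter in healthy livers and passed it through the HCC livers, so they had to be higher there, and counts that hold them are a description only.

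Markers of cell types were counted in the same way, beside 22.7% of all genes higher and 18.1% lower in HCC, and 8.32% higher and 5.47% lower with miR-22. All 4 hepatocyte markers fell in HCC and 2 rose with miR-22, with Serpina1c at log2 fold changes of -3.10 (edgeR adjusted p = 9.97e-07) and 2.10 (edgeR adjusted p = 0.000261) and Alb at -1.14 (edgeR adjusted p = 0.000352) and 0.55 (edgeR adjusted p = 0.0635). Of 5 cholangiocyte markers 4 rose in HCC and 3 fell with miR-22, and their sum was 29.4 to 41.9 CPM in the healthy group, 3324 to 6213 CPM without miR-22 and 1562 to 2700 CPM with it, of which Spp1 made up most. Krt19, the defining keratin of this list, was not called in HCC (0.89, edgeR adjusted p = 0.151). Proliferation markers, Ccnb1 and Cdk1 among them, summed to 9.30 to 14.2 CPM in the healthy group and 139 to 178 CPM without miR-22, and 3 of 5 fell with miR-22, to a sum of 87.0 to 130 CPM. Endothelial markers summed to 244 to 304, 165 to 215 and 227 to 275 CPM in the order healthy, untreated and treated (0 higher and 2 lower in HCC, 1 higher with miR-22), stellate cell markers to 300.2 to 367, 282 to 318 and 312 to 369 CPM (1 higher and 2 lower, then 2 higher), and macrophage markers to 242 to 294, 224 to 257 and 278 to 292 CPM (1 higher, then none). Neutrophil markers, most of which passed the filter through the HCC livers, summed to 1.76 to 4.53, 17.5 to 22.9 and 16.8 to 25.2 CPM, and markers of T and NK cells (none called in HCC, Nkg7 higher with miR-22) to 3.41 to 4.02, 3.47 to 4.97 and 3.83 to 6.29 CPM. No marker was at 0 in all livers of a group, and the part of these shifts in the transporter differences was not tested.

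The microRNA given to the treated mice, mmu-miR-22-3p (RefSeq, chr11:75463772-75463793, GRCm38.p6, plus strand), is printed with its seed, bases 2 to 8, in capitals, followed by the first seed match, GGCAGCT, in the 3′ UTRs of transporters higher in HCC with most matches.
mmu-miR-22-3p: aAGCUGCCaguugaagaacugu
Abcc5, first of 4 matches: gcagccgctgtgGGCAGCTtgctggctgga
Abcb1b, first of 3 matches: actttggtgcctGGCAGCTggaagacagat
A seed match stood in the annotated 3′ UTR of 19 of the 45 tested transporters (42.2%) and of 4078 of 13649 genes tested that have a 3′ UTR (29.9%). The median log2 fold change with miR-22 was 0.13 over the 19 and 0.45 over the tested transporters without a match, beside -0.04 and -0.01 over all genes with and without one. Slco3a1, the transporter called lower with miR-22, held no match in this UTR. Slc47a1, Slc22a7, Slco2b1, Abcg5, Abcc2 and Slc22a5, which were called higher, held 1 each. A match is a description of the letters and not a measured site.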

How the data were processed

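RNA of 9 whole livers was sequenced from non-directional NEBNext Ultra II libraries as paired 150-base reads. According to the study's methods and the submitters' processing notes, the authors checked reads with FastQC 0.11.7, quantified them with Salmon on GRCm39 with a GENCODE annotation, summed them per gene with tximport and tested with DESeq2 1.18. The authors deposited whole-number counts per gene, neither normalized nor filtered, and these counts were used here. A second deposited table, the same counts divided by a size factor, was not used.

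Members and lists were chosen with earlier results of these data known. Of 55401 genes, 15717 passed edgeR's filterByExpr. All 9 libraries entered a single fit (R 4.3.3, edgeR 4.0.16, TMM, two-sided quasi-likelihood F test, no covariates) with Benjamini-Hochberg adjustment over all genes tested, and genes were called at an adjusted p under 0.05 and a fold over 1.5. Errors of log2 fold changes are standard errors of the fit. Samples were grouped by title. The labels do not say that the samples of a group are separate animals, so p-values measure the spread between these samples. No pair of replicates agreed within sampling noise (chi-square per degree of freedom 6.13 to 28.4). Intervals of count ratios are exact at 95%, and the floor is 3 counts.

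Genes were named by a rule: principal hepatocyte transporters by textbook knowledge, the 5 called members with the largest rise and fall in each comparison, members that passed the test but not the fold, the rest by class, and up to 4 genes of each context list by smallest p. Rdx, Alb, Krt19, Nkg7 and Nfe2l2 were named for what they are or after their values were seen. Tf was not used here. Results for a few single genes and for 1 promoter motif are not reported here, although all genes entered the fits, counts and sums. Positions and main transcripts came from GENCODE M39 (GRCm39), promoters and the microRNA from RefSeq (GRCm38.p6), and 3′ UTRs from GENCODE M39. A planned comparison of protein sequences was replaced by the share of 31-base stretches in common between transcripts. The test was checked on simulated data.

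Alternatives were DESeq2 size factors, upper-quartile normalization, DESeq2 1.42.0 (Wald test), limma-trend 3.58.1 (prior count 1), no filter, a mean of at least 10 counts, a fit to the groups compared, a replicate block, the adjusted p alone, glmTreat and leaving out each library.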

Additional observations from a re-analysis of the deposited data

How the results depend on the processing

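In HCC against healthy livers, 34 transporters were called, 27 to 39 under the other settings and 32 to 35 when a library was left out. For miR-22-treated against untreated HCC the count was 18, with 17 to 23 under the other settings except for glmTreat against the fold, which called 6 (6 higher, 0 lower), and the replicate block, and it was 14 to 21 when a library was left out (lowest without untreated replicate 3, with 14 higher and 0 lower, and 21 both without treated replicate 4, with 16 higher and 5 lower, and without untreated replicate 4, with 18 higher and 3 lower). For treated HCC against healthy livers it was 20, with 8 by glmTreat (7 higher, 1 lower), 19 to 24 under the other settings and 17 to 21 when a library was left out. glmTreat tests against the fold itself and so calls fewer genes by construction. For the 31 transporters refitted singly under each setting, no call turned into a call in the opposite direction. This covers calls only, since a change near 0, such as that of Abcc12 with miR-22 (log2 fold change 0.01), can change sign. Under DESeq2 size factors, upper-quartile normalization and the DESeq2 Wald test the rise of Abcc2 with miR-22 was under the fold (log2 fold changes of 0.57, 0.56 and 0.57), and by the DESeq2 Wald test Abcc4 was called lower with miR-22 (-0.65, adjusted p = 0.0428), as it was without the filter (-0.62, edgeR adjusted p = 0.00011), and Abcc5 was called lower by limma-trend (-0.59, adjusted p = 0.028). Against healthy livers, treated Abcg8 (DESeq2 size factors, no filter, fit to 2 groups) and Slc22a7 (no filter, fit to 2 groups) were called lower as well; the cause was not tested. The median of all genes moved by less than 0.1 (log2) between scalings.

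Neither the labels nor the values showed that replicate numbers pair the samples, although with 3 livers per group the values cannot exclude a pairing. Same-numbered untreated and treated livers had correlated deviations of -0.116, -0.116 and -0.227 across genes, none of them the best match of its sample. With the replicate number as a block, 37 transporters were called in HCC, 10 with miR-22 (10 higher, 0 lower) and 19 in treated HCC against healthy livers. With 3 livers per group and counts of a few reads, the 22 transporters below the filter were not tested except in the setting without it, and small changes in the others may have been missed.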

Other observations

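The treated livers were uneven. In miR-22-treated replicate 4 the summed transporter level was 1140 CPM per kilobase, beside 1450 and 1490 in the other two. Of the 24 transporters called lower in HCC, 17 had their lowest treated value in that liver, 4 in replicate 2 and 3 in replicate 3. Slc22a7 was 28.2 CPM there beside 59.0 and 71.1, Slc22a26 89.1 beside 192 and 129, Slco1a1 643 beside 962 and 1082, and Slc47a1 93.0 beside 125 and 124, whereas Slc22a5 had its highest treated value (42.1 CPM) there. Of the 10 called higher in HCC, 7 had their highest treated value in replicate 4, such as Slco1a6 at 35 counts beside 10 and 9 and Abcc5 at 58.0 CPM beside 37.4 and 34.2. The other 3 did not: Abcg2 was 71.4 CPM beside 55.6 and 79.5, Abcg3 7.04 beside 9.78 and 6.82, and Abcc1 4.66 beside 4.46 and 5.87. This was noticed after the values were seen and has no test.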
